A study of Mus musculus with 6 samples.

Results

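The collagens studied here are the 44 mouse genes whose GENCODE M21 symbol consists of Col, a number, the letter a and a number, and which are annotated as protein coding. They were selected by name from 41388 genes in a table of raw counts. Of the 44, 11 encode fibrillar collagens and 6 encode the type IV collagens of basement membranes. Levels were measured by strand-specific poly(A) RNA-seq in 6 lines of induced pluripotent stem cells (iPSCs), which are somatic cells returned to an embryonic stem cell-like state. The lines formed a knockout group of 3 lines with the genotype miR-34a-/- and a group of 3 wild-type lines. All 6 were C57BL/6. They came from embryonic fibroblasts of littermates at embryonic day 13.5, reprogrammed with retroviral (pMX) Oct4, Sox2 and Klf4. Each line was expanded from a singly picked colony on irradiated fibroblast feeders, so any feeder RNA left in a sample is part of its library. Lines of a genotype are described as independent, but the embryo behind each line is not given, and the p-values weigh genotype against the spread between these lines.

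Collagens are extracellular proteins whose chains carry long stretches of the repeat Gly-X-Y and wind in threes into a triple helix. Fibrillar collagens have a nearly uninterrupted helix and assemble into the fibrils of connective tissue, which fibroblasts make in quantity. Type IV collagens have an interrupted helix and form the sheet-like network of basement membranes, the earliest of which in the mouse embryo is laid down by primitive endoderm and epiblast. Other classes sit on fibrils (the fibril-associated or FACIT collagens), form microfibrils of beads (type VI), anchor epithelia (type VII) or span the plasma membrane (types XIII, XVII, XXIII and XXV). miR-34a is a microRNA induced by p53.

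Total counts were 20877988, 29654855 and 8721581 in knockout lines and 25698286, 8432597 and 16760545 in wild-type lines. Levels are in CPM, counts scaled to each library's total over tested genes after TMM normalisation, and 3 counts corresponded to between 0.107 and 0.375 CPM. The poly(A) libraries held 1, 0 and 0 counts of Mir34a in knockout lines and 2, 0 and 0 in wild-type lines, so they do not check the genotype. In bulk samples fewer cells of a type and less RNA per cell cannot be told apart. Of the 4 defining pluripotency markers, Pou5f1, Nanog, Sox2 and Zfp42, the lowest was Zfp42, at a mean of 93.1 CPM in knockout and 76.1 CPM in wild-type lines. Pou5f1 averaged 1183 ± 82.0 CPM in knockout and 871 ± 71.8 CPM in wild-type lines (SD, n = 3 each). Any reads of the retroviral Oct4 (Pou5f1) and Sox2 were not told apart from those of the cells' own genes.

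Of the 44 collagen genes, 34 passed the filter on low counts (edgeR filterByExpr) and were tested. With edgeR's quasi-likelihood test and Benjamini-Hochberg adjustment over all 14717 genes tested, 11 collagens were higher in knockout lines, 11 were lower and 12 were not called at an adjusted p under 0.05. Calls were frequent throughout these libraries, with 50.5% of all genes tested called, 26.5% higher and 24% lower. Of the tested collagens 64.7% were called, 32.4% higher and 32.4% lower. Groups did not overlap for 24 of the 34 collagens, against 56% of all genes tested. The median log2 fold change of the collagens was −0.09, and that of all genes tested was 0.01. After a trend with GC content was removed from each library, 9 collagens were higher and 14 lower, with a median of −0.22. Collagen genes are GC-rich, with a median of 57.0% in those that rose, 55.2% in those that fell and 58.4% in those not called. The median over the 13409 tested genes with an annotated 3′ UTR was 50.3%. Among tested genes with a mean above 5 CPM, the median log2 fold change ran from −0.24 in decile 1 of GC content, the lowest, to 0.11 in decile 10.

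The third line of each genotype tended to have the lowest collagen levels. Among 30 tested collagens with a mean of at least 1 CPM, knockout replicate 3 was the lowest knockout line for 23 and wild-type replicate 3 the lowest wild-type line for 21. Without wild-type replicate 3, 10 collagens were called higher and 16 lower. Among the added calls was Col1a2 at −0.26 (adjusted p = 0.02, edgeR).

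The direction varied by class. Among the 10 fibrillar genes tested, 5 fell, 2 rose and 3 were not called, and their median log2 fold change was −0.27 (−0.42 with the GC trends removed). None of the 3 type IV genes tested was called, and their median was 0.16 (0.03 with the GC trends removed). Their unadjusted p was under 0.05 for 0 of the 3 with edgeR, and DESeq2 and limma voom also called 0. This depended on leaving out the replicate number as a block. With that block Col4a1 (0.18, adjusted p = 0.0063, edgeR) and Col4a2 (0.15, adjusted p = 0.043) were called higher and Col4a5 (−0.35, adjusted p = 0.038) lower. With the block and the GC trends removed, Col4a5 alone was called (−0.41, adjusted p = 0.0089, edgeR). Among the 7 FACIT genes tested, 4 rose, 1 fell and 2 were not called. All 3 tested transmembrane collagens rose.

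**Figure D1:**
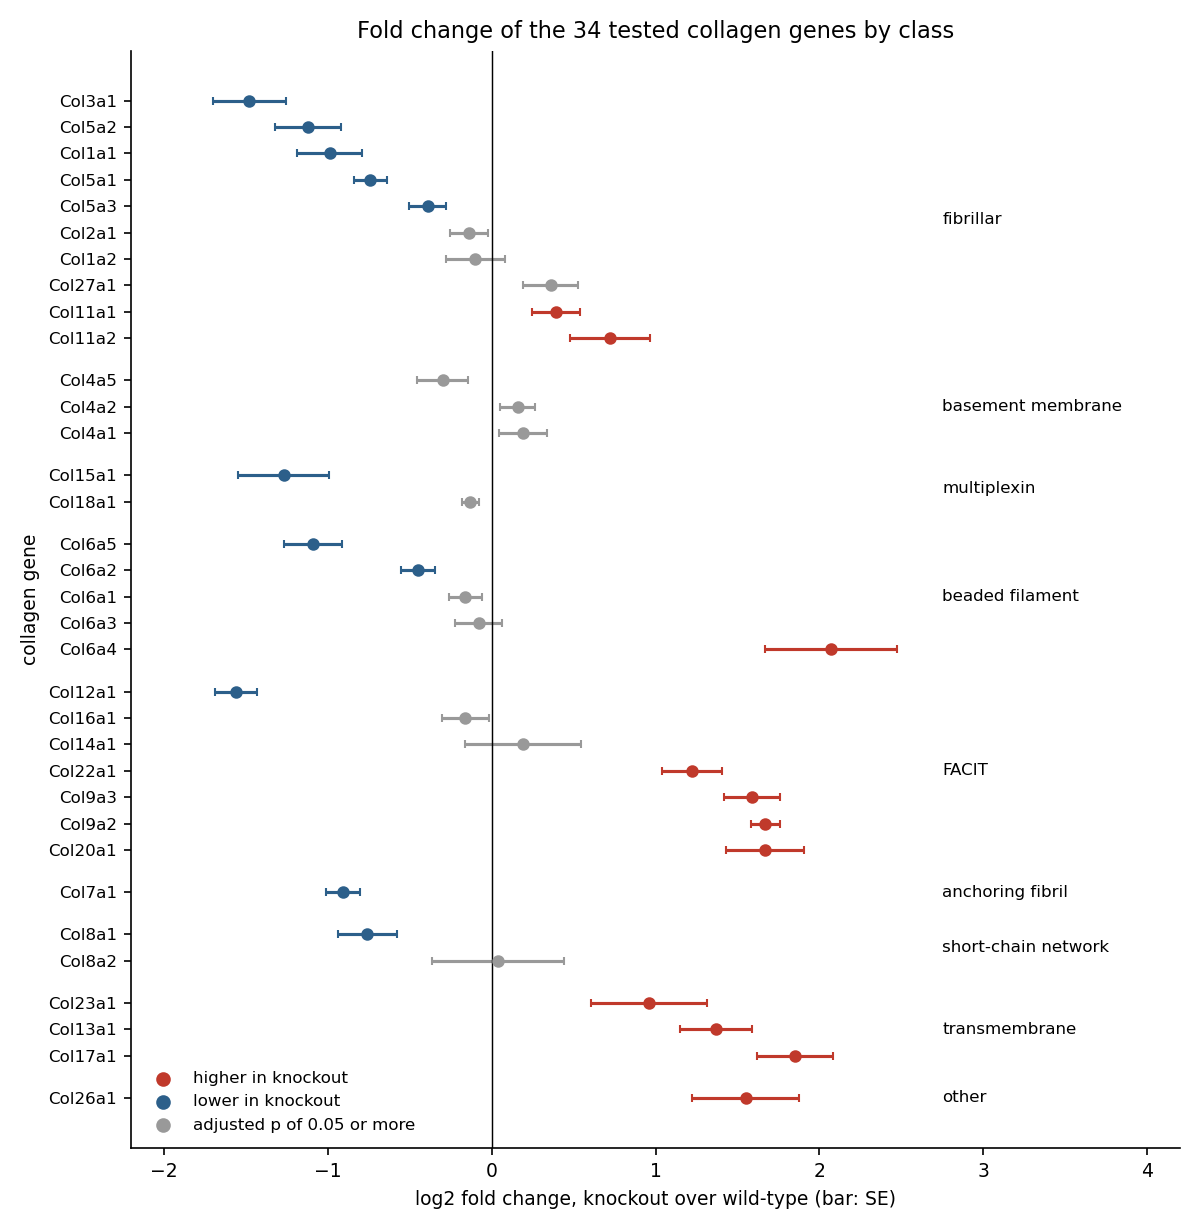
Log2 fold change, knockout over wild-type, of the 34 tested collagen genes grouped by class. Points are edgeR estimates, bars are standard errors, and colours mark genes higher, lower or not called at an adjusted p of 0.05. Fibrillar genes range from −1.48 for Col3a1 to 0.72 for Col11a2, the 3 type IV genes sit between −0.30 and 0.19, and the transmembrane genes all lie above 0.9.

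Type I collagen is the main fibrillar collagen of connective tissue and is normally built from chains encoded by Col1a1 and Col1a2. Col1a1 (chr11:94936224-94953042, plus strand, mm10) had 143, 130.1 and 107 CPM in knockout lines, against 283, 280.3 and 198 CPM in wild-type lines. Every knockout line was below every wild-type line. The mean was 127 ± 18.3 CPM in knockout and 254 ± 48.7 CPM in wild-type lines (SD, n = 3 each), a log2 fold change of −0.99 (SE 0.198, adjusted p = 0.014, edgeR). This call was lost without knockout replicate 2, when the log2 fold change was −1.0 and the adjusted p from edgeR was 0.059. Col1a2 (chr6:4504814-4541544, plus strand) had 160.2, 167 and 132 CPM in knockout lines, against 182, 186 and 129.5 CPM in wild-type lines. The groups overlapped, and the log2 fold change of −0.10 (SE 0.182, adjusted p = 0.68, edgeR) was within the spread between lines.

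The balance of the type I chain mRNAs can be read within each library, without any scaling between libraries. There were 0.893, 0.778 and 0.813 Col1a1 counts per Col1a2 count in knockout lines, against 1.56, 1.51 and 1.52 in wild-type lines. The ratio stayed nearly constant among wild-type lines although their Col1a1 level varied, and no knockout ratio came near that range. The difference in the log2 ratio was −0.89, with an exact two-sided permutation p of 0.1. This is the smallest p that 3 lines against 3 allow, and it became 0.143 after Benjamini-Hochberg adjustment over 10 such ratios.

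The other large fibrillar changes were in types III and V, which are built into the same fibrils as type I. Col3a1, the chain of type III collagen (chr1:45311538-45349706, plus strand), had 11.8, 10.9 and 7.85 CPM in knockout lines, against 33.5, 34.4 and 21.8 CPM in wild-type lines. It was the fibrillar gene with the largest change, at a log2 fold change of −1.48 (SE 0.222, adjusted p = 0.002, edgeR). Col5a2 (chr1:45374321-45503282, minus strand), a chain of type V collagen, which starts fibrils and limits their diameter, had 16, 15.2 and 10.9 CPM in knockout lines, against 31.5, 40.7 and 25.3 CPM in wild-type lines. Its log2 fold change was −1.12 (SE 0.202, adjusted p = 0.0044, edgeR). Col3a1 and Col5a2 are neighbours that face each other tail to tail, 24614 bases apart, and both fell. Relative to Col1a2 they differed within every library. There were 0.0734, 0.0654 and 0.0596 Col3a1 counts per Col1a2 count in knockout lines, against 0.184, 0.185 and 0.169 in wild-type lines, and 0.0997, 0.0907 and 0.0829 Col5a2 counts per Col1a2 count in knockout lines, against 0.174, 0.219 and 0.195 in wild-type lines (exact permutation p = 0.1 for each, adjusted 0.143). The ratio of Col3a1 to Col1a1 counts was also lower without overlap, at 0.0822, 0.0841 and 0.0734 in knockout lines and 0.118, 0.123 and 0.111 in wild-type lines (exact permutation p = 0.1, adjusted 0.143).

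Col5a1, the partner chain of Col5a2 (chr2:27886425-28039514, plus strand), had 51.5, 51.3 and 45.1 CPM in knockout lines, against 87.9, 92.3 and 69.3 CPM in wild-type lines. The log2 fold change was −0.74 (SE 0.099, adjusted p = 7.9e-05, edgeR). Col5a3, the third chain of type V (chr9:20770050-20815067, minus strand), had 10.1, 9.76 and 8.09 CPM in knockout lines, against 12.9, 11.1 and 13.0 CPM in wild-type lines, a log2 fold change of −0.39 (SE 0.112, adjusted p = 0.0065, edgeR). All 3 type V genes were lower in every knockout line than in any wild-type line. The balance of the partner chains also differed without overlap, with 3.23, 3.38 and 4.13 Col5a1 counts per Col5a2 count in knockout lines, against 2.79, 2.27 and 2.74 in wild-type lines (exact permutation p = 0.1, adjusted 0.143).

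None of the fibrillar genes best known from cartilage was called lower. Col2a1, the main cartilage collagen (chr15:97975602-98004695, minus strand), had 13.4, 11.6 and 11.3 CPM in knockout lines, against 12.3, 16.3 and 12.8 CPM in wild-type lines. The groups overlapped and its log2 fold change of −0.14 was not called (adjusted p = 0.34, edgeR), but Col2a1 was called lower with the GC trends removed (log2 fold change −0.29). Col11a1, whose type XI chain forms the core of cartilage fibrils, had 5.88, 6.87 and 5.52 CPM in knockout lines, against 4.8, 5.5 and 4.25 CPM in wild-type lines. Its log2 fold change was 0.39 (SE 0.147, adjusted p = 0.035, edgeR), with the lowest knockout line only just above the highest wild-type line.

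Col11a2, a second type XI chain, had 2.28, 1.79 and 2.45 CPM in knockout lines, against 1.07, 1.63 and 1.35 CPM in wild-type lines, a log2 fold change of 0.72 (SE 0.245, adjusted p = 0.020, edgeR). Both type XI calls depended on the tool, the settings and the lines included. DESeq2 called neither (adjusted p = 0.15 for Col11a1 and 0.10 for Col11a2). Without wild-type replicate 1 the adjusted p from edgeR was 0.087 for Col11a1 and 0.16 for Col11a2, and without knockout replicate 1 it was 0.054 for Col11a1 and 0.08 for Col11a2. Col11a1 also lost its call without knockout replicate 2 (adjusted p = 0.22, edgeR) and without wild-type replicate 3 (adjusted p = 0.13), and with no filter beyond 1 count (adjusted p = 0.06). With the GC trends removed Col11a2 was not called (0.55, adjusted p = 0.071, edgeR). Col27a1, a fibrillar collagen of developing cartilage, had 4.66, 4.79 and 4.41 CPM in knockout lines, against 4.35, 3.00 and 3.09 CPM in wild-type lines. Its groups did not overlap, but its log2 fold change of 0.36 missed the threshold (adjusted p = 0.082, edgeR). Col24a1, the eleventh fibrillar gene, was under the filter with 5 counts in knockout and 11 in wild-type lines.

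Fibroblast markers, listed without collagens, went in both directions. Of 18 fibroblast genes tested, 12 fell and 5 rose (median log2 fold change −0.75), and with the GC trends removed 11 fell and 3 rose. Their summed level was 1109 to 1269 CPM in knockout and 1249 to 1505 CPM in wild-type lines, so the sums overlapped. The markers that rose were S100a4 (log2 fold change 1.62, adjusted p = 2.6e-12, edgeR), Twist1 (0.54, adjusted p = 0.028), Vim (0.44, adjusted p = 0.026), Ccn2 (0.39, adjusted p = 2.8e-05) and Fbln2 (0.26, adjusted p = 0.034). Twist1 and Fbln2 were not called with the GC trends removed. None of the genes that rose was a defining marker, and every defining marker tested was called lower. Postn averaged 2.05 ± 0.6 CPM in knockout and 15.8 ± 1.84 CPM in wild-type lines (log2 fold change −3.03, adjusted p = 6e-11, edgeR). Thy1 averaged 26.1 ± 1.29 CPM in knockout and 40.2 ± 4.51 CPM in wild-type lines (log2 fold change −0.59, adjusted p = 5.6e-06). Also lower were Dcn (−1.13, adjusted p = 0.004, edgeR), Twist2 (−1.05, adjusted p = 0.021), Pdgfrb (−0.91, adjusted p = 8.1e-06) and Prrx1 (−0.43, adjusted p = 0.037). Prrx1 overlapped between groups and was not called with the GC trends removed. For Twist2 and Dcn, all wild-type lines were past the filter's level of 0.564 CPM, but not all knockout lines were. Of the defining markers not tested, Lum had 0 counts in knockout and 3 in wild-type lines, and Fap had 0 in knockout and 5 in wild-type lines. The part of fibroblast-marker RNA, feeders included, in the fall of Col1a1, Col3a1, the type V genes and Col12a1 was not tested.

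**Figure D2:**
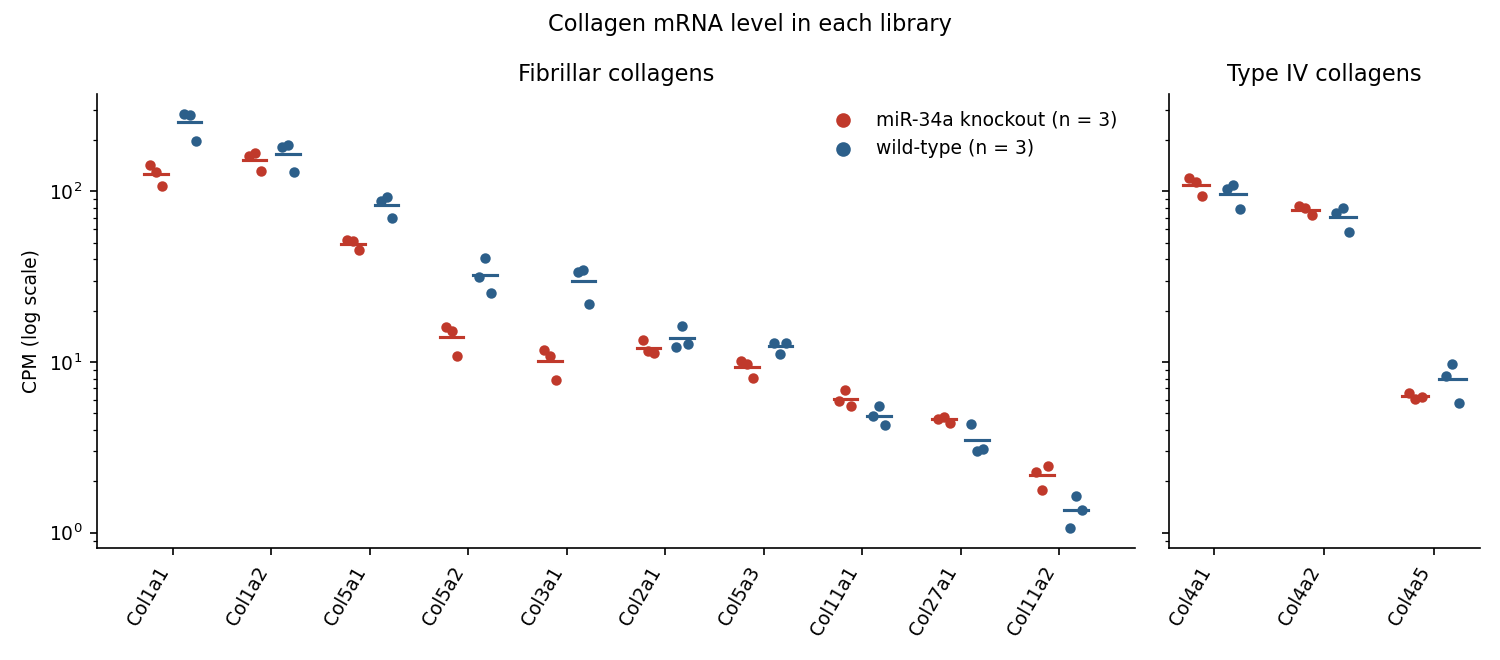
CPM (log axis) of the fibrillar and type IV collagen genes with a mean of at least 1 CPM. Each point is 1 line and each bar a group mean, with knockout to the left of wild-type. Knockout points lie below all wild-type points for Col1a1, Col5a1, Col5a2, Col3a1 and Col5a3, while the groups overlap for Col1a2, Col2a1 and the 3 type IV genes.

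With all lines and without covariates, the type IV genes showed no call in either direction. Col4a1 (chr8:11198423-11312826, minus strand) had 119, 114 and 94.2 CPM in knockout lines, against 103, 109 and 79.1 CPM in wild-type lines, a log2 fold change of 0.19 (SE 0.146, adjusted p = 0.33, edgeR). Col4a2 (chr8:11312805-11449287, plus strand) had 81.6, 79.5 and 73.0 CPM in knockout lines, against 74.7, 79.4 and 57.4 CPM in wild-type lines, a log2 fold change of 0.16 (SE 0.107, adjusted p = 0.24, edgeR). Knockout and wild-type lines overlapped for both. These genes encode the chains of the widespread type IV heterotrimer and are transcribed in opposite directions from annotated starts that overlap by 22 bases. The ratio of Col4a1 to Col4a2 counts was 1.46, 1.44 and 1.29 in knockout lines, against 1.37, 1.37 and 1.38 in wild-type lines (difference in log2 ratio 0.02, exact permutation p = 0.9).

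Ratios between the classes separated the genotypes. Col1a1 counts per Col4a1 count were 1.20, 1.14 and 1.14 in knockout lines, against 2.76, 2.57 and 2.50 in wild-type lines. Summed over all members, fibrillar CPM was 2.02, 2.05 and 1.93 times type IV CPM in knockout lines, against 3.51, 3.37 and 3.36 times in wild-type lines. The lines of each genotype lay close together and the genotypes did not overlap. The difference in the log2 of this summed ratio was −0.77 (exact two-sided permutation p = 0.1).

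The sequence at the start of the type IV pair is shown because a single window holds the starts of both genes, together with windows from 3 collagens that differed in their response. Col3a1 fell, Col1a2 was not called, and Col9a2, described below with the FACIT genes, rose. The windows are RefSeq promoters of build GRCm38.p6, all on the plus strand and written 5′ to 3′. Each runs from 250 bases before to 50 bases after the RefSeq start of the gene (Col4a2 for the type IV pair). For Col1a2 and Col9a2 this start, at 4505618 and 121039566, lies downstream of the GENCODE start. Capitals mark GGGCGG (the GC box), CCAAT and TATAAA, each searched on both strands. A CCAAT match can share bases with a GC box on the other strand, which occurred in none of these 4 windows.
Col4a2 and Col4a1, chr8:11312555-11312854: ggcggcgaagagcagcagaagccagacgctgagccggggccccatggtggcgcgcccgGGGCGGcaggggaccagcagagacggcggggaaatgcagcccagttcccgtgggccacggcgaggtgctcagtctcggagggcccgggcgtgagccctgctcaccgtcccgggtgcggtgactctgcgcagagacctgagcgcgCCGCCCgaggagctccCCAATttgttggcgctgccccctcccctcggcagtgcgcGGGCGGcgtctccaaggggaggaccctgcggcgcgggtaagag
Col3a1, chr1:45311288-45311587: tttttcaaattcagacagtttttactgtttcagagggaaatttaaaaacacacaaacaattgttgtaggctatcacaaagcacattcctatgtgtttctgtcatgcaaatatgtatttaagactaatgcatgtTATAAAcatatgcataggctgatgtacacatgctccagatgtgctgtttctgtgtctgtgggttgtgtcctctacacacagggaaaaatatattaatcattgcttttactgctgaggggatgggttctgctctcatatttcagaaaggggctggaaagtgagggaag
Col1a2, chr6:4505368-4505667: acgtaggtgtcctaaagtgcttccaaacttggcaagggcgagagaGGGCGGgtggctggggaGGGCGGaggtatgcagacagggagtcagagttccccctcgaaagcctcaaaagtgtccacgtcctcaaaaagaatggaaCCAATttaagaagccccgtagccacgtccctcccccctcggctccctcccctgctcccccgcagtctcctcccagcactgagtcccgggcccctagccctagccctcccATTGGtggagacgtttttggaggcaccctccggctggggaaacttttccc
Col9a2, chr4:121039316-121039615: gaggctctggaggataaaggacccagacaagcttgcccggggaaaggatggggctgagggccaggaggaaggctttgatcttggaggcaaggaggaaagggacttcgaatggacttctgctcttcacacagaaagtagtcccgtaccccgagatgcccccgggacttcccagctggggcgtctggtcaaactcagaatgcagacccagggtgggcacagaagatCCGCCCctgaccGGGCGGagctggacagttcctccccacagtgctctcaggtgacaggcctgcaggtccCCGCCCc

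The shared type IV window held 3 GC boxes and 1 CCAAT match, and no TATAAA. The Col1a2 window held 2 GC boxes and 2 CCAAT matches, the Col9a2 window 3 GC boxes, and the Col3a1 window a single TATAAA match. RefSeq windows were matched for 35 of the 44 collagen genes. A GC box was present in 62.9% of these 35, against 35.7% of all 32851 windows in the table. CCAAT was present in 34.3% against 37.4%, and TATAAA in 14.3% against 13.6%. By class, a GC box stood in 6 of 8 fibrillar and 4 of 5 type IV windows. These are matches of letters and do not show binding.

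Of the other type IV genes, Col4a5 had 6.54, 6.08 and 6.25 CPM in knockout lines, against 8.33, 9.76 and 5.74 CPM in wild-type lines. Col4a5 encodes a chain of the kidney glomerular basement membrane network. Its log2 fold change was −0.30 (SE 0.156, adjusted p = 0.11, edgeR), and it was called lower (−0.50, adjusted p = 0.0057, edgeR) without wild-type replicate 3, the wild-type line with the lowest level. Col4a5 lies on chromosome X, and of 15 other tested genes above 5 CPM that start within 5 Mb of it, 10 fell and 1 rose, with a median log2 fold change of −0.46. The same window around Col4a1 on chromosome 8 held 31 genes with a median of −0.06. The part that the surrounding X-linked genes play in the Col4a5 value was not tested. Col4a3, Col4a4 and Col4a6 were under the filter, with 1, 3 and 10 counts in knockout lines and 0, 3 and 20 counts in wild-type lines.

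Per kilobase of transcript, the collagen mRNA of highest level was Col18a1 in both genotypes. It encodes a multiplexin, a basement membrane proteoglycan from which endostatin is cleaved. Col18a1 had 580.4, 564 and 535 CPM in knockout lines, against 625, 612 and 598 CPM in wild-type lines. The groups did not overlap, but the log2 fold change of −0.13 missed the threshold (SE 0.053, adjusted p = 0.052, edgeR). DESeq2 and limma voom called Col18a1 lower at the same size of change (−0.13), and with the GC trends removed it was called lower at −0.26. Its relative Col15a1, the other multiplexin, fell, with 0.913, 0.572 and 0.858 CPM in knockout lines against 1.80, 2.13 and 1.61 CPM in wild-type lines (log2 fold change −1.27, SE 0.277, adjusted p = 0.0008, edgeR).

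In CPM per kilobase of the transcript with the longest coding sequence, the order in knockout lines was Col18a1 (100 ± 4.12), Col1a2 (28.6 ± 3.53), Col1a1 (21.4 ± 3.09), Col4a1 (16.5 ± 2.01), Col9a2 (13.8 ± 1.5) and Col4a2 (12.1 ± 0.699). The wild-type order was Col18a1 (109 ± 2.44), Col1a1 (42.8 ± 8.21), Col1a2 (31.0 ± 5.87), Col4a1 (14.6 ± 2.38), Col4a2 (10.9 ± 1.80) and Col5a1 (9.90 ± 1.45), all as mean ± SD of 3 lines. In knockout lines the mean ± SD of Col9a2 overlapped those of Col4a1 and Col4a2, which did not overlap each other. Col1a1 and Col4a1 also overlapped by this measure in knockout lines. In wild-type lines Col1a1 overlapped Col1a2, and Col4a2 overlapped both Col4a1 and Col5a1. Summed over all collagens, CPM per kilobase was 252, 245 and 216 in knockout lines, against 289, 289 and 240.1 in wild-type lines, so the totals overlapped.

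The make-up of this sum differed between genotypes. Fibrillar collagens made up 27.5 ± 1.21% in knockout lines and 36.5 ± 3.00% in wild-type lines, with ranges of 26.1 to 28.3% in knockout and 33.0 to 38.6% in wild-type lines. Type IV collagens made up 12.5 ± 0.161% in knockout and 9.81 ± 0.724% in wild-type lines (ranges 12.3 to 12.6% in knockout and 9.06 to 10.5% in wild-type lines). The summed type IV level itself overlapped, at 31.7, 30.6 and 26.5 CPM per kilobase in knockout lines and 28.4, 30.4 and 21.8 in wild-type lines. FACIT collagens made up 8.39 ± 0.191% in knockout and 3.84 ± 0.176% in wild-type lines. Their sum was 21.3, 20.9 and 17.6 CPM per kilobase in knockout lines and 11.1, 10.6 and 9.61 in wild-type lines. Within it, Col9a2 alone averaged 13.8 ± 1.5 in knockout and 4.4 ± 0.232 in wild-type lines. Multiplexins overlapped between genotypes, at 42.3 ± 1.82% in knockout and 40.5 ± 3.65% in wild-type lines. With union exon length in place of transcript length the fibrillar share was 23.4% in knockout and 33.7% in wild-type lines, and the type IV share 14.7% in knockout and 11.6% in wild-type lines.

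**Figure D3:**
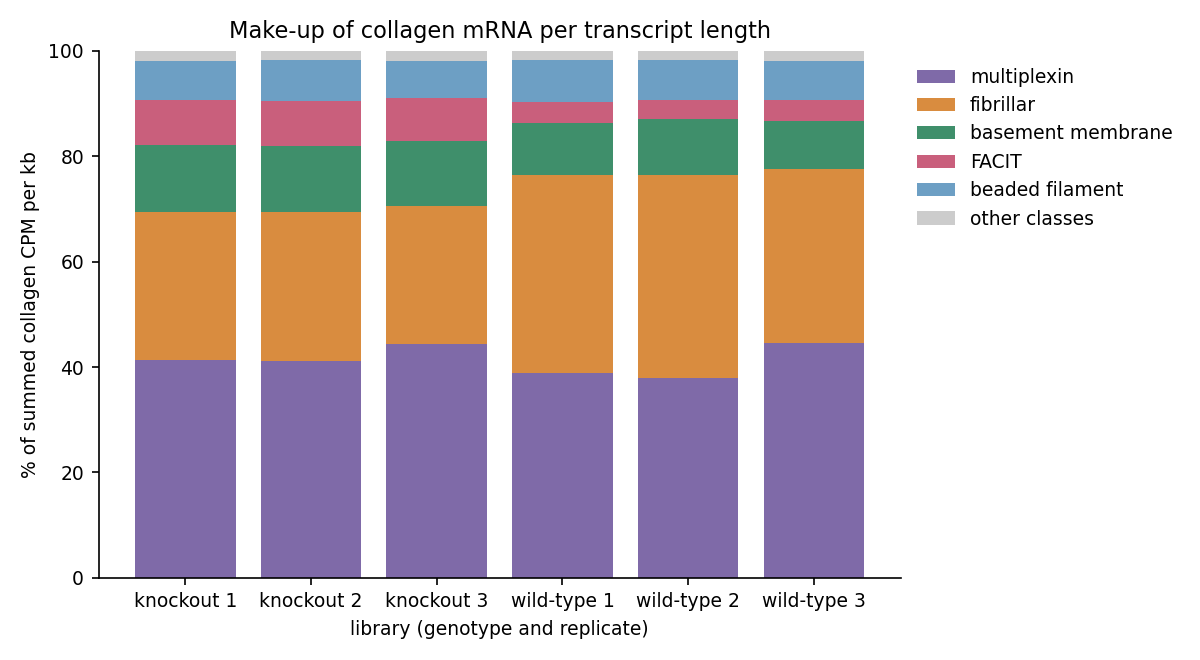
Share of each collagen class in the summed collagen CPM per kilobase of transcript, in percent, for each of the 3 knockout and 3 wild-type lines. The fibrillar band covers 26.1 to 28.3% in knockout lines and 33.0 to 38.6% in wild-type lines, and the FACIT band is wider in every knockout line.

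Of the 11 collagens that rose, 9 lay outside the fibrillar and type IV classes. Type IX is a FACIT collagen that decorates type II fibrils, and its chain gene Col9a2 (chr4:121039385-121055322, plus strand) had 43.0, 42.8 and 35.3 CPM in knockout lines, against 12.5, 12.5 and 13.7 CPM in wild-type lines. The mean was 40.4 ± 4.39 CPM in knockout and 12.9 ± 0.678 CPM in wild-type lines (SD, n = 3 each), with a log2 fold change of 1.67 (SE 0.089, adjusted p = 1.5e-11, edgeR). This was the smallest p in the family. Col9a3 had 7.81, 7.01 and 6.01 CPM in knockout lines, against 2.67, 2.38 and 1.87 CPM in wild-type lines, a log2 fold change of 1.59 (SE 0.169, adjusted p = 2.4e-07, edgeR).

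The ratio of Col9a2 to Col9a3 counts was 5.51, 6.11 and 5.88 in knockout lines and 4.68, 5.26 and 7.31 in wild-type lines, and the groups overlapped (exact permutation p = 0.9). Col9a1, which encodes the remaining type IX chain, had 0 counts in knockout and 5 in wild-type lines. Exons of Col9a3 share 234 bases with Tcfl5 on the opposite strand, and Tcfl5 rose too, at 33.2 ± 2.19 CPM in knockout and 24.6 ± 1.23 CPM in wild-type lines (log2 fold change 0.44, adjusted p = 8e-05, edgeR). The strand setting used in counting is not given by the labels or notes, so a share of Tcfl5 reads in the Col9a3 count was not tested.

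Of 6 chondrocyte markers tested, 4 rose and none fell (median log2 fold change 0.78), with summed levels of 32.7 to 38.8 CPM in knockout and 18.5 to 21.7 CPM in wild-type lines. Acan rose (0.99, adjusted p = 2.2e-07, edgeR) and Matn1 rose (1.82, adjusted p = 3.8e-05), while Comp was not called (−0.15, adjusted p = 0.75). The part of chondrocyte-marker RNA in the type IX values was not tested.

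The other FACIT genes went in both directions. Col12a1, whose type XII product binds type I fibrils in dense connective tissue, had 12, 11 and 11.3 CPM in knockout lines, against 37.4, 37.7 and 26.6 CPM in wild-type lines. Its log2 fold change was −1.56 (SE 0.127, adjusted p = 3.8e-07, edgeR), which differed from the −1.48 of Col3a1 by less than the standard errors. With the GC trends removed it was −1.55, against −1.57 for Col3a1. Col22a1, known from tissue junctions such as that of muscle and tendon, had 5.02, 4.22 and 4.54 CPM in knockout lines, against 1.97, 1.5 and 2.19 CPM in wild-type lines (log2 fold change 1.22, SE 0.183, adjusted p = 1.7e-05, edgeR). Col20a1 rose as well, with 2.89, 3.11 and 2.58 CPM in knockout lines against 0.861, 0.625 and 1.16 CPM in wild-type lines (log2 fold change 1.67, SE 0.237, adjusted p = 9.9e-06, edgeR). Its exons share 79 bases with BX649560.1 on the same strand, which was not called (log2 fold change 0.41, adjusted p = 0.063, edgeR). Col16a1 (log2 fold change −0.16, adjusted p = 0.36, edgeR) and Col14a1 (0.19, adjusted p = 0.69) were not called. Col19a1 had 0 counts in knockout lines and 1 in wild-type lines.

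The 3 transmembrane collagens tested had between 0.328 and 4.16 CPM in all lines, and they rose. Col17a1, a hemidesmosome component of epithelia, had 4.16, 3.22 and 3.07 CPM in knockout lines, against 1.07, 0.625 and 1.03 CPM in wild-type lines (log2 fold change 1.85, SE 0.233, adjusted p = 2.3e-06, edgeR). Col13a1, found at neuromuscular junctions and other adhesion sites, had 3.25, 3.22 and 2.82 CPM in knockout lines, against 1.48, 1.00 and 0.967 CPM in wild-type lines (log2 fold change 1.37, SE 0.220, adjusted p = 4.1e-05, edgeR). Groups were well apart for both. Col23a1 had 1.01, 1.22 and 1.10 CPM in knockout lines, against 0.328, 1.00 and 0.709 CPM in wild-type lines, and its log2 fold change of 0.96 (adjusted p = 0.031, edgeR) was not called with the GC trends removed. Col25a1, the fourth of the class, was under the filter with 11 counts in knockout and 1 in wild-type lines. Col26a1, which belongs to none of these classes, rose with 1.32, 1.25 and 2.08 CPM in knockout lines against 0.451, 0.625 and 0.451 CPM in wild-type lines (log2 fold change 1.55, SE 0.328, adjusted p = 0.00064, edgeR).

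Type VI collagen forms beaded microfibrils from chains encoded by Col6a1, Col6a2 and Col6a3. Col6a2 had 18.2, 18 and 13.5 CPM in knockout lines, against 25.1, 24.4 and 20.5 CPM in wild-type lines, and it fell by 0.45 on the log2 scale (SE 0.105, adjusted p = 0.0016, edgeR). Col6a1 had 34.3, 32.3 and 27.1 CPM in knockout lines, against 39.1, 37.4 and 30.0 CPM in wild-type lines, with overlapping groups and a log2 fold change of −0.16 (adjusted p = 0.21, edgeR). With the GC trends removed Col6a1 was called lower, at −0.30. Col6a3 had 56.2, 60.3 and 49.2 CPM in knockout lines, against 68.2, 61.3 and 47.7 CPM in wild-type lines (log2 fold change −0.08, adjusted p = 0.66, edgeR). There were 1.89, 1.80 and 2.01 Col6a1 counts per Col6a2 count in knockout lines, against 1.56, 1.53 and 1.47 in wild-type lines, which did not overlap (exact permutation p = 0.1, adjusted 0.143). The ratio of Col6a3 to Col6a1 counts overlapped, at 1.64, 1.87 and 1.81 in knockout lines and 1.74, 1.64 and 1.59 in wild-type lines (exact permutation p = 0.3).

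A further pair of type VI genes on chromosome 9 moved in opposite directions. Col6a5 and Col6a4 lie on the same strand, 28810 bases apart. Col6a5 had 2.89, 1.93 and 2.70 CPM in knockout lines, against 5.25, 4.63 and 5.35 CPM in wild-type lines (log2 fold change −1.09, SE 0.179, adjusted p = 5.1e-05, edgeR). Col6a4 had 1.01, 1.14 and 0.981 CPM in knockout lines, against 0.369, 0.125 and 0.129 CPM in wild-type lines (log2 fold change 2.07, SE 0.404, adjusted p = 0.00029, edgeR). The Col6a4 value rests on 60 counts in knockout and 12 in wild-type lines, and the gene passed the filter through the knockout lines alone. Col6a6, beside Col6a5, was under the filter with 16 counts in knockout and 11 in wild-type lines.

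**Figure D4:**
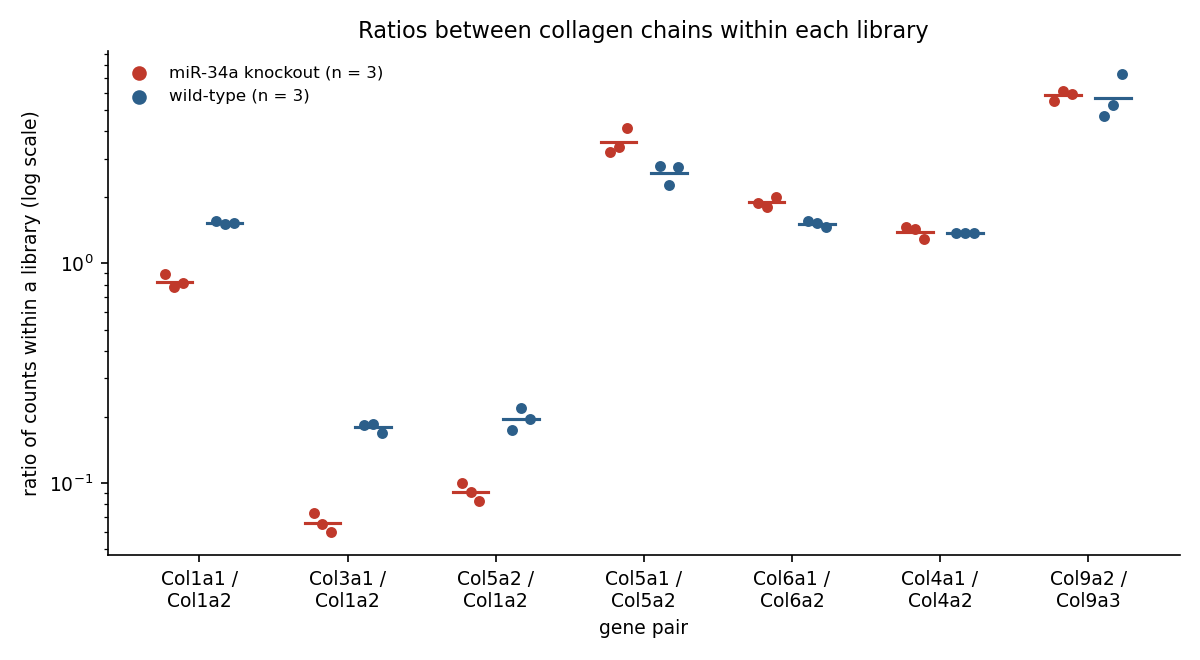
Ratio of counts between collagen genes within each library (log axis). Points are lines and bars are group means, with knockout left of wild-type. The Col1a1 to Col1a2 ratio is under 1 in all 3 knockout lines and between 1.51 and 1.56 in wild-type lines, while the Col4a1 to Col4a2 and Col9a2 to Col9a3 ratios overlap between genotypes.

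Type VII collagen makes the anchoring fibrils beneath epithelial basement membranes. Its gene Col7a1 had 10.1, 9.51 and 8.09 CPM in knockout lines, against 18.8, 17.8 and 16.6 CPM in wild-type lines (log2 fold change −0.91, SE 0.104, adjusted p = 5.8e-07, edgeR). Col8a1, a short-chain collagen of vessel walls and the corneal Descemet membrane, had 4.97, 5.40 and 2.82 CPM in knockout lines, against 8.33, 9.63 and 6.57 CPM in wild-type lines (log2 fold change −0.76, SE 0.180, adjusted p = 0.0023, edgeR). Both fell in every knockout line relative to every wild-type line. Col8a2, the partner of Col8a1, was not called (log2 fold change 0.04, adjusted p = 0.94, edgeR). Col10a1, the collagen of hypertrophic cartilage, and Col28a1 were under the filter, with 15 and 6 counts in knockout lines and 27 and 10 counts in wild-type lines. All 10 untested members had at most 16 counts over the knockout lines and at most 27 over the wild-type lines. Of the 34 tested, 29 reached the filter's level in every line.

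The helix lengths that separate the classes were computed from the annotated coding sequences. The longest uninterrupted Gly-X-Y run was between 1011 and 1032 residues in 9 of the 11 fibrillar chains, and 648 and 651 residues in Col24a1 and Col27a1. In type IV chains it was between 117 and 198 residues. The 3 type IX chains each had 339 residues. In spite of the shared repeat, at least 96.3% of the 50-base words of each collagen transcript occurred in no other gene.

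Matches to the miR-34a seed were looked for because the knockout lines lack this microRNA. The mature sequence is given with its seed (bases 2 to 8) in capitals, from RefSeq GRCm38.p6, chr4:150068473-150068494, plus strand. It is followed by the 3′ UTR matches of tested collagens, with the letters complementary to the seed (CACTGCC) in capitals. The words upstream and downstream for Col6a2 follow only the alphabetical order of the letters. The positions of these matches along a UTR were not determined.
mmu-miR-34a-5p: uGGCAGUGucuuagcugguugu
Col12a1: attgtgaatttCACTGCCttat
Col23a1: tcctgaaacccCACTGCCccag
Col6a1: gtcttcctcctCACTGCCccta
Col6a2, upstream match: cagagtcttccCACTGCCtgtt
Col6a2, downstream match: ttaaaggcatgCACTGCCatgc
Col9a3: tacacataaagCACTGCCtcac

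Of these 5 genes, Col9a3 and Col23a1 rose, Col12a1 and Col6a2 fell, and Col6a1 was not called, with a median log2 fold change of −0.16. A match was present in 2438 of 13409 tested genes with an annotated 3′ UTR, or 18.2%. Their median log2 fold change was 0.02, with 29.3% higher and 25% lower in knockout lines, against 26.8% higher and 24.9% lower among genes without a match. Neither Col9a2 nor any of the fibrillar genes tested had a match. Col4a3, Col4a4, Col4a6 and Col6a6, all under the filter, also had matches. These matches are letters in an annotated UTR and do not show that a transcript is a target.

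Genes that modify and fold collagen chains were higher in knockout lines in 10 of 20 cases, lower in 3 and not called in 7 (median log2 fold change 0.15). With the GC trends removed 7 were higher and 2 lower (median 0.12). Colgalt2, which transfers galactose to hydroxylysine, had 6.59, 8.01 and 5.40 CPM in knockout lines, against 0.205, 0.5 and 0.129 CPM in wild-type lines. The log2 fold change was 4.87 (SE 0.298, adjusted p = 9.3e-11, edgeR), resting on 398 counts in knockout and 11 in wild-type lines. Colgalt2 passed the filter through the knockout lines alone. Prolyl 4-hydroxylase, which stabilises the helix, has alternative catalytic subunits. P4ha2 rose, at 26.4 ± 2.63 CPM in knockout and 9.40 ± 0.265 CPM in wild-type lines (log2 fold change 1.51, adjusted p = 1.7e-10, edgeR). P4ha1 rose by less (0.31, adjusted p = 0.0014, edgeR). P4ha3 fell, at 1.0 ± 0.258 CPM in knockout and 2.78 ± 0.422 CPM in wild-type lines (log2 fold change −1.31, adjusted p = 0.00012, edgeR). The shared subunit P4hb was called higher at 0.17 (adjusted p = 0.012, edgeR) but not with the GC trends removed (0.06, adjusted p = 0.36). P3h1, a prolyl 3-hydroxylase, rose (0.60, adjusted p = 5.8e-07, edgeR), and so did Crtap, the cartilage-associated protein that forms a complex with it (0.45, adjusted p = 8.8e-06), while the collagen chaperone Serpinh1 fell by 0.24 on the log2 scale (adjusted p = 0.0023).

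Cross-linking and maturation genes fell in 6 of 14 cases, rose in 2 and were not called in 6 (median log2 fold change −0.31). With the GC trends removed 9 fell and 2 rose (median −0.43). Lox, the lysyl oxidase that cross-links fibrillar collagen, had 15.2, 13.0 and 12.9 CPM in knockout lines, against 27.9, 29.0 and 28.6 CPM in wild-type lines (log2 fold change −1.05, adjusted p = 7.2e-09, edgeR). Loxl2 fell too (−1.30, adjusted p = 2.3e-07, edgeR), as did Pxdn, the peroxidase that cross-links type IV collagen (−0.45, adjusted p = 3.7e-05). Tgm2, a transglutaminase, rose (0.65, adjusted p = 3.9e-05, edgeR). Every collagen receptor gene tested was called, 6 of 8 lower and 2 higher (median −0.45). Itga1, the alpha chain of a collagen-binding integrin, averaged 3.93 ± 0.272 CPM in knockout and 11.8 ± 2.72 CPM in wild-type lines (log2 fold change −1.61, adjusted p = 1.2e-07, edgeR), and its partner Itgb1 fell by 0.45 on the log2 scale (adjusted p = 3.8e-05). The discoidin receptor Ddr1 fell by 0.32 (adjusted p = 0.00015, edgeR).

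Basement membrane partners of type IV collagen rose in 9 of 18 cases, fell in 4 and were not called in 5 (median log2 fold change 0.19). With the GC trends removed 7 rose and 6 fell, and the median was 0.06. Hspg2 (perlecan) averaged 1362 ± 138 CPM in knockout and 886 ± 83.8 CPM in wild-type lines (log2 fold change 0.62, adjusted p = 1.2e-05, edgeR). The nidogen Nid1, which links laminin to type IV collagen, rose by a log2 fold change of 0.55 (adjusted p = 1.3e-07, edgeR), and Sparc, a collagen-binding glycoprotein, also by 0.55 (adjusted p = 3e-08). The laminin chains differed, with Lama3 (0.90, adjusted p = 4.6e-09, edgeR) and Lamc1 (0.27, adjusted p = 0.00096) higher and Lamb1 lower (−0.37, adjusted p = 1.7e-05). Among 9 collagenases, gelatinases and their inhibitors, 3 rose and 3 fell (median 0.04), or 3 and 4 with the GC trends removed (median −0.06). Timp1, an inhibitor, rose (0.70, adjusted p = 3.8e-08, edgeR), and Ctsk, a collagen-cleaving cathepsin of low level, fell (−2.58, adjusted p = 1.3e-05). Ctsk had 0.71, 0.286 and 0.123 CPM in knockout lines, against 2.5, 3.5 and 1.87 CPM in wild-type lines. All wild-type lines were past the filter's level of 0.564 CPM for Ctsk, but not all knockout lines were.

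Of 14 primitive endoderm genes tested, 10 rose and 3 fell (median 0.92), and their summed level was 1659.6 to 1743 CPM in knockout and 1445 to 1599 CPM in wild-type lines. The defining marker Gata4 averaged 6.11 ± 0.419 CPM in knockout and 1.80 ± 0.188 CPM in wild-type lines (log2 fold change 1.74, adjusted p = 7.1e-08, edgeR). Other markers went the opposite way. Lrp2 averaged 45.5 ± 7.16 CPM in knockout and 97.2 ± 11.1 CPM in wild-type lines (log2 fold change −1.11, adjusted p = 0.00049, edgeR), and Thbd fell by 0.44 on the log2 scale (adjusted p = 0.013). Foxa2 was under the filter, with 19 counts in knockout and 29 in wild-type lines. Lama1, Lamb1, Lamc1 and Sparc stood in both this list and that of the basement membrane partners. The part of primitive endoderm RNA in the type IV and partner values was not tested. Of 10 pluripotency genes, 7 rose and 2 fell (median 0.30).

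**Figure D5:**
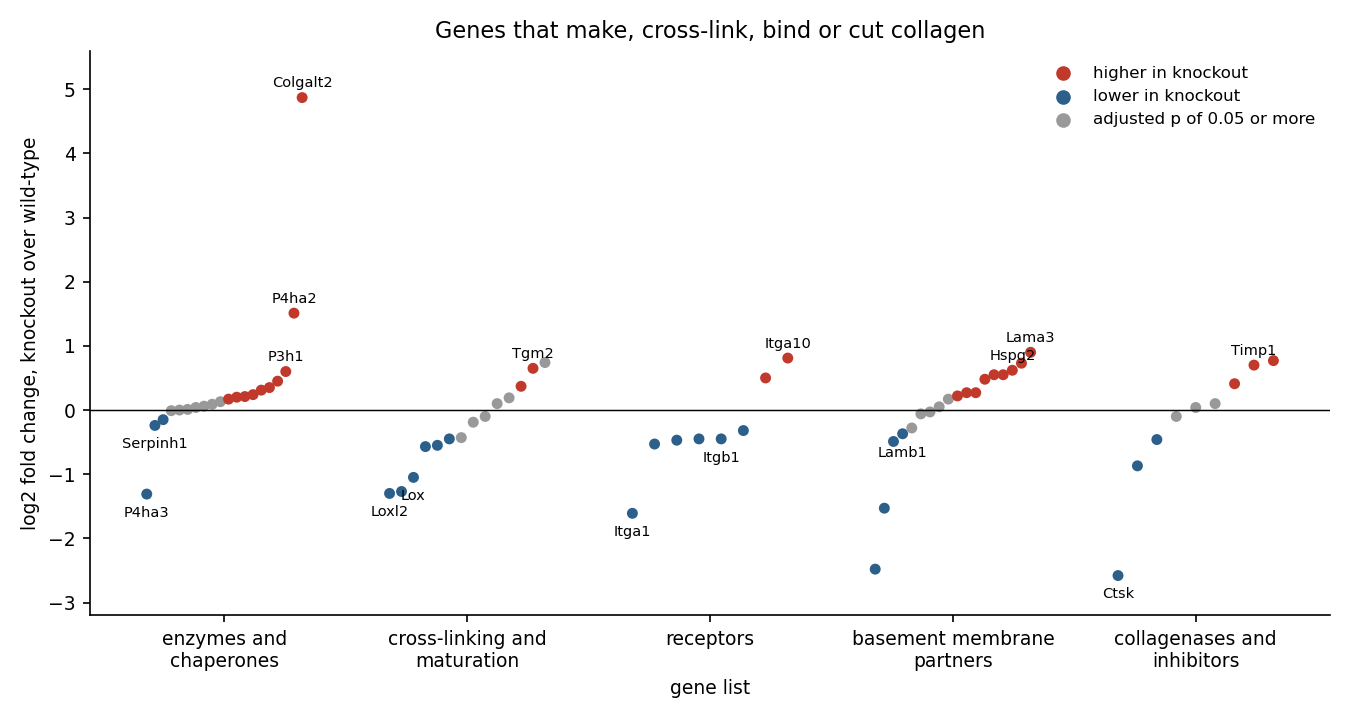
Log2 fold change, knockout over wild-type, of tested genes that modify, cross-link, bind, accompany or cut collagen, 1 point per gene, sorted within each list. Colours mark genes higher, lower or not called at an adjusted p of 0.05 from edgeR. Colgalt2, which passed the filter through the knockout lines alone, stands at 4.87. The receptors fall on both sides of 0 with 6 of 8 below it.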

How the data were processed

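The authors deposited raw counts per gene and repeat family for 6 libraries, and per the labels' protocols these were strand-specific poly(A) libraries. The mm10 build is listed with TopHat2 2.0.11 and featureCounts 1.4.5 in the submitters' processing notes. The counting's strand setting, multi-mapping rule and annotation were not given in the sources used here. Of 42290 rows, 902 repeat families were left out (5.4 to 6.16% of counts per library). A further table with 6 columns whose names match no label was not used. Samples were grouped by the genotype in the labels.

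Gene names and coordinates came from GENCODE M21, which matched 40340 of 41388 identifiers. Genes past filterByExpr (10 counts at the median library size, or 0.564 CPM, in 3 libraries) were put through edgeR 4.0.16 (R 4.3.3) with TMM factors, glmQLFit with robust = TRUE and glmQLFTest, two-sided, without covariates. P-values were adjusted by Benjamini-Hochberg over all tested genes, with calls at 0.05. Each SE was obtained as the absolute log2 fold change over √F. Ratios of counts within a library were compared on the log2 scale by exact two-sided permutation over the 6 libraries. The GC correction used a lowess (span 0.3) of each library's deviation on transcript GC content, entered as offsets. Per-kilobase levels used the transcript with the longest coding sequence. The steps were tested on simulated counts. A chi-square over genes was computed for each pair of libraries, and each pair differed by more than sampling noise (2.25 to 64.2 per degree of freedom).

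Every collagen with a mean of at least 1 CPM was named with values and the rest with calls or counts. From each partner list up to 4 members with the smallest p were named, plus a set of enzymes, receptors and laminins, while marker genes outside that rule were chosen after their values were seen. The collagens, classes and lists were chosen with earlier results of these data known. The alternatives were DESeq2 1.42.0 and its size factors in edgeR, library totals, limma 3.58.1 voom, other filters, robust = FALSE, a replicate block, GC correction and each library left out.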

Additional observations from a re-analysis of the deposited data

How the results depend on the processing

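Depth limits members near or under 0.375 CPM, where 3 counts mark the floor of the shallowest library, and each group holds 3 lines. Across alternatives the number of collagens called higher ran from 8 (DESeq2, and without knockout replicate 1) to 12 and of those called lower from 10 to 18. The 18 came from the replicate block together with removal of the library GC trends. The number of fibrillar genes called higher, 2 in the report, was 0 with DESeq2, 1 with no filter beyond 1 count, 1 with the replicate block, 1 with the GC trends removed and 0 to 2 when each library was left out. The number of type IV genes called lower was 1 once Col15a1 and Col18a1 were added to the class, that gene being Col15a1, and 0 to 1 when each library was left out. Without wild-type replicate 1 the log2 fold changes of Col16a1 and Col6a3, neither of them called, were both 0.05 and thus turned sign, and over the libraries left out they ran from −0.32 to 0.05 and from −0.23 to 0.05. Among further values for single genes and class shares under the alternatives, 441 kept their direction and side of the threshold, 26 gained a call, 12 lost it, 3 shares moved with union exon length and 2 turned sign. The cause was not tested.

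The labels speak of 3 pairs of lines without tying them to replicate numbers, so the numbers were not taken as pairs. The deviations of same-numbered libraries correlated at 0.0885, −0.0198 and 0.11. Those of differently numbered libraries correlated at −0.116 to 0.0629. These values do not settle whether the numbers mark pairs. With the replicate number as a block 12 collagens were called higher and 14 lower. Of the type IV genes 2 were then called higher (Col4a1 and Col4a2) and 1 lower (Col4a5), and with the block and the GC trends removed 1 was called lower. The block also ended the call of Col11a1 (adjusted p = 0.07, edgeR). The counts for the partner and marker lists with the GC trends removed were added after seeing the data.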
